A study of Homo sapiens with 12 samples.

Results

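The comparison described here set 3 libraries of A375 cells treated for 24 h with XL413 and OF1 together, at 1 µM each (called the combination), against 3 libraries of A375 cells treated for 24 h with DMSO, the solvent (vehicle). It takes in every gene of the table and 6 of the 12 libraries of the series. The other libraries, 3 with 1 µM XL413 alone and 3 with 1 µM OF1 alone for the same time, served to measure the spread and to test whether the combination differed from either inhibitor alone. A375 is a human melanoma line, so all groups share the genotype of a single tumour. The submitters describe the libraries of a group as biological replicates, but separate cultures are not stated, so p-values measure only the spread between these libraries. The 6 libraries held 31981352 to 36062138 counts each, and 15353 genes passed a filter on low counts.

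XL413 inhibits CDC7, a kinase that works with its partner DBF4 and phosphorylates the MCM helicase so that replication origins can fire. OF1 binds the bromodomains of BRPF1, BRD1 (also known as BRPF2) and BRPF3, which are scaffold subunits of histone acetyltransferase complexes. ATF4 is a transcription factor made when cells run short of amino acids or meet other stress, and its targets supply amino acids, charge tRNAs and limit translation. Genes for mitosis are held down early in the cell cycle and switched on in G2 and M phase through sites in their promoters, among them the CHR (cell cycle genes homology region). Levels below are CPM, the counts of a gene scaled to a common library size with TMM factors, and the 3 values given for a group stand in the order of replicates 1, 2 and 3. A gene is said to have risen or fallen only where edgeR's adjusted p was under 0.05, and fold changes on the log2 scale carry their standard error (SE).

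Markers of the melanocyte lineage and of other cell types were read in every library. SOX10, the neural crest factor of the melanocyte lineage, was at 322, 352 and 356 CPM in DMSO and 318, 323 and 348 CPM in the combination, whereas the pigment genes MLANA and TYR had at most 7 and 0 counts in any of the 6 libraries. Combination replicates 2 and 3 stood apart from every other library on the first principal component (24.1% of the variance), at -33.4 and -31.5, against -7.0 for combination replicate 1 and -1.9 to 15.1 for the rest. The mean log2 CPM of 42 genes of skeletal muscle fibres was 0.63, 1.18 and 2.02 in DMSO and 0.70, -0.56 and -0.12 in the combination, and that of 14 fibroblast markers was 3.11, 3.29 and 3.11 against 2.98, 2.13 and 2.31. Combination replicate 3 had the highest mean for 70 cytosolic ribosomal protein genes, at 10.43 against 9.97 to 10.24 in the 11 other libraries. In bulk RNA a smaller share of cells of a type and less RNA per cell cannot be told apart. Of 15 leukocyte markers 5 passed the filter on low counts, with a summed level of 47.9 to 51.9 CPM in DMSO and 48.3 to 51.4 CPM in the combination, most of it from CD68. FCER1G, an Fc receptor subunit, rose (log2 change 1.57 ± 0.46, SE, adjusted p = 0.0401), a call lost without DMSO replicate 2 (0.143), DMSO replicate 3 (0.14), combination replicate 1 (0.0538), combination replicate 2 (0.08) or combination replicate 3 (0.104), where brackets give the adjusted p without that library. Among the markers that did not pass the filter, CD3E had 0 counts in all 6 libraries and PTPRC 3 or fewer.

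The combination changed 1645 genes (10.7% of those tested), of which 867 rose (5.65%) and 778 fell (5.07%). Most changes were small, with a median absolute log2 change of 0.22 among the genes called, while 15 risen and 52 fallen genes passed 2-fold. Libraries did not overlap for 857 of the risen and 758 of the fallen genes, beside 13.8% of all tested genes lying higher without overlap and 13.8% lower. The test used 1 estimate of the spread for all groups, although the groups differed in it. Chi-square per degree of freedom between libraries was 6.59 to 13.96 in the combination and 2.33 to 4.54 in DMSO. With the 6 libraries alone 878 genes were called. The count was 728 without DMSO replicate 2, 751 without DMSO replicate 3 and 1035 without combination replicate 2, and 857 with replicate 1 as the only combination library. The plot of change against level marks the genes described first.

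**Figure D1:**
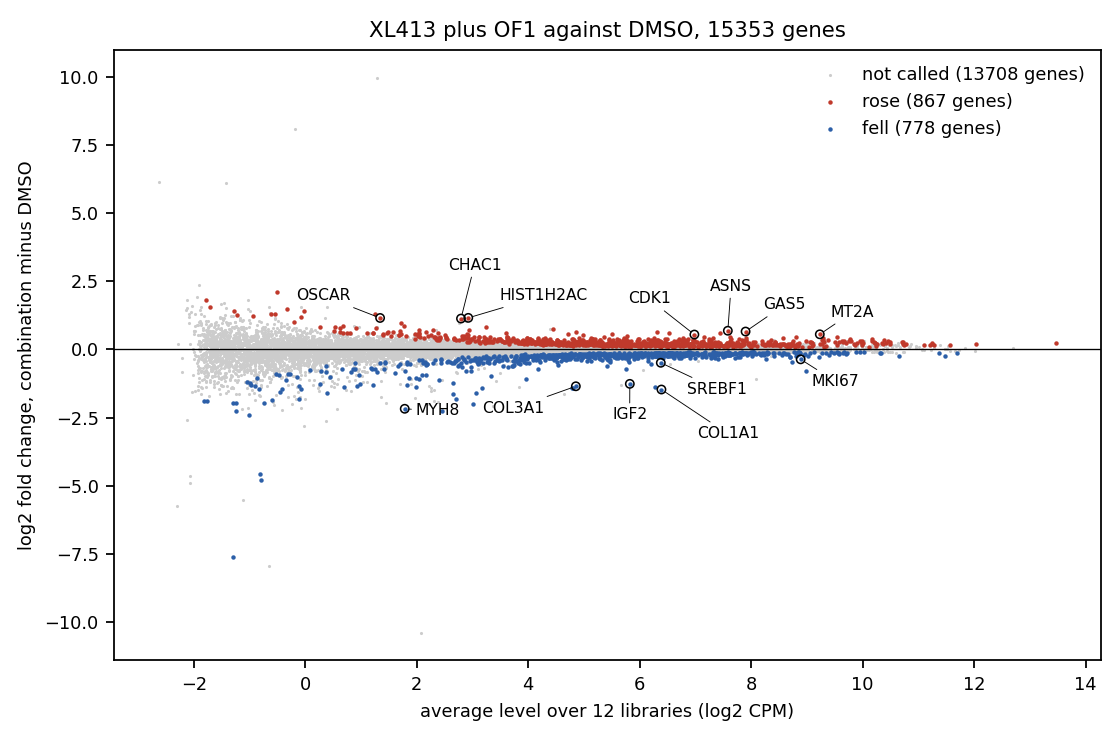
Log2 fold change of the combination against DMSO (vertical axis) for 15353 genes by their average log2 CPM over 12 libraries (horizontal axis), with 867 risen genes in red, 778 fallen in blue and the rest in grey. The ringed genes are described in the text, with ASNS, CDK1, GAS5 and MT2A among the risen and COL1A1, COL3A1, IGF2 and MYH8 among the fallen.

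The 15 genes of average log2 CPM of at least 1 that rose most were led by a histone gene, a receptor and a stress enzyme. HIST1H2AC, now named H2AC6, encodes a histone H2A and went from 5.46, 5.25 and 4.51 CPM in DMSO to 10.3, 10.8 and 12.8 CPM (2.23-fold, log2 change 1.15 ± 0.11, adjusted p = 1.79e-05). OSCAR, the osteoclast-associated receptor, went from 1.47, 1.47 and 1.49 to 3.11, 3.25 and 3.49 CPM (1.15 ± 0.17, adjusted p = 0.000694). CHAC1, an ATF4 target that degrades glutathione, went from 5.94, 5.49 and 3.91 to 10.6, 11.4 and 11.6 CPM (1.13 ± 0.12, adjusted p = 4.97e-05). Genes without overlap between the groups were the only ones eligible here, so every combination library lay above every DMSO library. HIST1H2BD (0.97 ± 0.15), ADM2 (0.85 ± 0.15), a peptide hormone, NUPR1 (0.80 ± 0.08), a stress-induced nuclear protein, and LAPTM5 (0.79 ± 0.18), a lysosomal membrane protein, followed. Then came HIST1H2BK (0.75 ± 0.07), CYP1A1 (0.72 ± 0.07), a monooxygenase induced by the aryl hydrocarbon receptor, OR51B4 (0.70 ± 0.10), FAM229B (0.70 ± 0.10), ASNS (0.68 ± 0.03), BEX2 (0.66 ± 0.14), GAS5 (0.65 ± 0.06) and PCK2 (0.65 ± 0.06). LAPTM5 lost its call without DMSO replicate 2 (adjusted p = 0.0612), and the other 14 kept theirs whichever of the 6 libraries was left out. With each library's mean of the muscle fibre genes as a covariate, ADM2 (adjusted p = 0.083) and BEX2 (0.0863) lost their calls. With replicate 1 as the only combination library, the log2 changes of the 15 ran from 0.54 (GAS5) to 1.10 (HIST1H2BD).

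Genes of the ATF4 response mostly rose. Of 40 ATF4 targets tested, 26 rose, 3 fell and 11 did not pass, beside 5.65% and 5.07% of all genes, with a list median of 0.34 against 0.00 over all genes tested. ASNS, the enzyme that makes asparagine, was at 154, 148 and 151 CPM in DMSO and 239, 243 and 244 CPM in the combination, a 1.60-fold rise (log2 change 0.68 ± 0.03, adjusted p = 8.12e-09). The enzymes of serine synthesis moved with it. PSAT1 went from 389, 391 and 386 to 536, 534 and 538 CPM (0.46 ± 0.03, adjusted p = 2.68e-07), and PHGDH, the first enzyme of that pathway, from 348, 336 and 337 to 429.6, 473 and 472 CPM (0.43 ± 0.04, adjusted p = 1.23e-05). MTHFD2, a mitochondrial folate enzyme, went from 302, 299 and 298 to 379.7, 386 and 375 CPM (0.34 ± 0.03). CBS, which joins homocysteine and serine, rose by 0.55 ± 0.05 and PCK2, the mitochondrial enzyme that makes phosphoenolpyruvate, by 0.65 ± 0.06, without overlap between the groups. The fallen members were ATF5 (-0.21 ± 0.04), a related transcription factor, ALDH18A1 (-0.13 ± 0.03), an enzyme of proline synthesis, and CCNG2 (-0.31 ± 0.08), a cyclin. ALDH18A1 lost its call without DMSO replicate 3 (0.0577) and CCNG2 without DMSO replicate 2 (0.0831), DMSO replicate 3 (0.104), combination replicate 2 (0.108) or combination replicate 3 (0.0862) (adjusted p in brackets), so that 1 member fell without DMSO replicate 3. Replicate 1 as the only combination library gave 22 risen and 3 fallen.

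ATF4 mRNA itself moved little, from 352, 342 and 337 CPM in DMSO to 375, 373 and 416 CPM (0.17 ± 0.04, adjusted p = 0.0139). It lost its call without DMSO replicate 2 (adjusted p = 0.0585) or replicate 3 (adjusted p = 0.0677). DDIT3, which encodes the stress factor CHOP, did not pass at a log2 change of 0.25 ± 0.08 (adjusted p = 0.0502). Of 24 genes for folding in the endoplasmic reticulum and the unfolded protein response, 2 rose and 5 fell. Over all genes the shares were 5.65% and 5.07%. HSPA5, the main chaperone of that compartment, went from 883, 873 and 887 to 797, 787 and 777 CPM (-0.16 ± 0.03, adjusted p = 0.00125), and ERO1B, an oxidase that forms disulfide bonds, rose by 0.39 ± 0.05. The count of fallen members was 2 without DMSO replicate 2, DMSO replicate 3 or combination replicate 2, and that of risen ones was 1 when any of these or combination replicate 3 was left out.

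The list medians had opposite signs with the single inhibitors, which share the DMSO libraries with the combination. The ATF4 list had a median log2 change of -0.12 with XL413 (0 risen, 5 fallen, beside 1.26% and 1.54% of all genes and 2.8% in either direction) and 0.22 with OF1 (19 risen, 0 fallen, beside 0.58% and 0.567%, or 1.15% in either direction). ASNS changed by -0.16 with XL413 and by 0.66 with OF1. Tested against XL413 alone, the combination had 29 of 40 members higher and 0 lower, beside 1.06% and 2.35% of all genes. Tested against OF1 alone it had 6 higher and 2 lower, beside 2.79% and 2.71%. ASNS differed from OF1 alone by 0.02 (adjusted p = 0.768), while CHAC1 (0.60, adjusted p = 0.0101), NUPR1 (0.35, 0.0172), CBS (0.26, 0.00942) and PHGDH (0.17, 0.0192) were higher with both inhibitors than with OF1. OSCAR, outside the list, changed by 0.03 with XL413, 1.32 with OF1, and the combination differed from OF1 by -0.17 (adjusted p = 0.547).

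Promoters of ATF4 targets are shown because the members moved together. The search covered 250 bases before to 50 after each RefSeq gene start (GRCh38.p14) on both strands for TGATGNAA, the core that ATF4 and C/EBP partners bind, and 30 of the 40 members had an entry. The motif was in 5 of the 30 (16.7%), in 2 of 17 risen members (11.8%) and in 3 of 13 others (23.1%), against 1003 of 27305 promoters of that length (3.7%). Shown 5′ to 3′ on the gene's strand, with the match in capitals, are the windows before the start of ASNS (chr7:97872409-97872658, minus strand) and CHAC1 (chr15:40953221-40953470, plus strand) and 30 bases after the start of SLC3A2 (chr11:62881719-62881748, plus strand). The matches begin 68 bases before the start in ASNS, 209 before it in CHAC1, where the motif reads on the opposite strand, and 38 after it in SLC3A2, again on the opposite strand.
ASNS: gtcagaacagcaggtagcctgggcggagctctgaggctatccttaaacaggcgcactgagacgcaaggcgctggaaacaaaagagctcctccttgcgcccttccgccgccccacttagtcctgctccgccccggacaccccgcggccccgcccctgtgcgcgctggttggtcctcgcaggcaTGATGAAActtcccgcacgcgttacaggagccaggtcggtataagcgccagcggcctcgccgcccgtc
CHAC1: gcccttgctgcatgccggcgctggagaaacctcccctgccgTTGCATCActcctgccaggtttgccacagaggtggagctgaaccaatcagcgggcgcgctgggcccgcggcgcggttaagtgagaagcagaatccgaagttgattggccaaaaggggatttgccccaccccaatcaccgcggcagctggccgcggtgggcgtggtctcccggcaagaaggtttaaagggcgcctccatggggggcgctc
SLC3A2: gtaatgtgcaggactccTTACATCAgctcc
ASNS and CHAC1 rose as given above, whereas SLC3A2, the heavy chain of amino acid exchangers, was at 489, 476 and 477 and 479, 539 and 537 CPM and did not pass (log2 change 0.11 ± 0.04, adjusted p = 0.12).

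**Figure D2:**
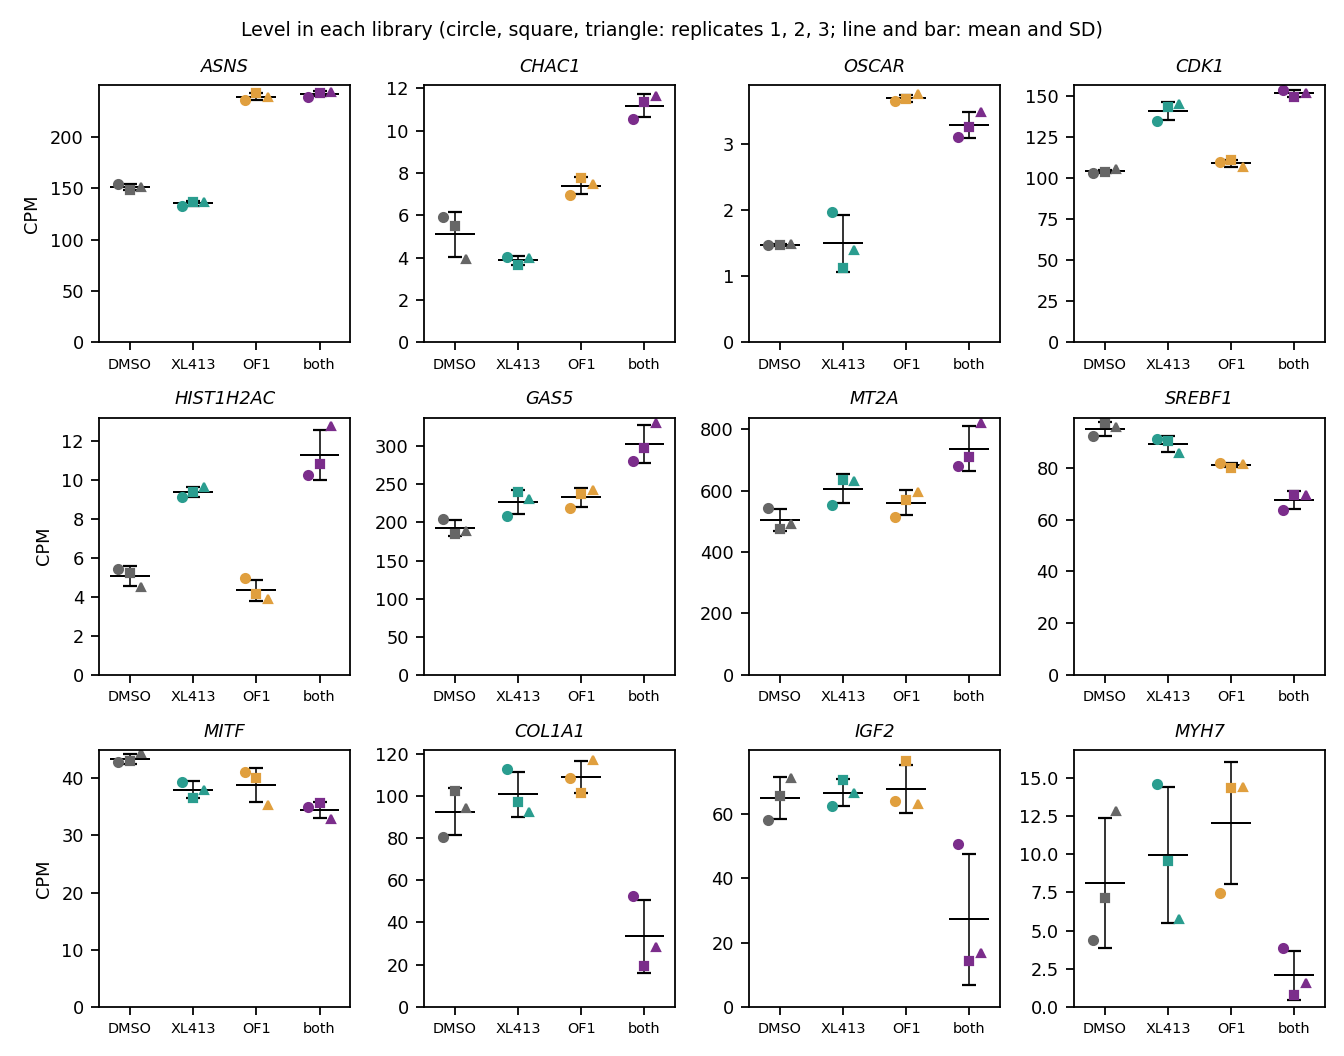
CPM of 12 genes (vertical axis, from 0) in each of the 12 libraries by treatment, with circles, squares and triangles for replicates 1, 2 and 3 and black lines and bars for the mean and SD. ASNS and OSCAR are high with OF1 and with both inhibitors, CDK1 and HIST1H2AC with XL413 and with both, and combination replicate 1 lies well above replicates 2 and 3 for COL1A1, IGF2 and MYH7.

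Enzymes that charge tRNAs with amino acids rose as well. Of 20 cytosolic aminoacyl-tRNA synthetase genes, 13 rose and 1 fell, beside 5.65% and 5.07% of all genes, with a list median of 0.15. SARS, which charges serine tRNA, went from 180.2, 178 and 178 to 222, 231 and 239 CPM (0.37 ± 0.03, adjusted p = 1.34e-05), and WARS, for tryptophan, from 222, 219.7 and 215 to 268, 275 and 273 CPM (0.31 ± 0.03). GARS, for glycine, rose by 0.28 ± 0.03, YARS, for tyrosine, by 0.26 ± 0.03 and CARS, for cysteine, by 0.31 ± 0.04. The exception was VARS, for valine, which went from 259, 270.1 and 269 to 219.7, 235 and 231 CPM (-0.22 ± 0.03). The list's median was -0.04 with XL413 and 0.08 with OF1. The combination was higher than XL413 for 12 members and higher than OF1 for 5, beside 1.06% and 2.79% of all genes.

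Against DMSO, transporters did not move as a group, with 4 of 24 amino acid transporter genes risen and 3 fallen, beside 5.65% and 5.07% of all genes. Tested against XL413 alone, 7 members were higher and 0 lower, beside 1.06% and 2.35% of all genes. Against OF1 alone 0 were higher and 3 lower, beside 2.79% and 2.71%. SLC1A4, a carrier of alanine, serine and cysteine, went from 44.3, 46.9 and 47.8 to 64.2, 66.1 and 64.04 CPM (0.48 ± 0.05). SLC7A11, the cystine importer, went from 35.2, 35.2 and 36.3 to 53.05, 49.4 and 43.04 CPM (0.45 ± 0.08), and SLC6A9, a glycine carrier, rose by 0.39 ± 0.06. SLC6A6, the taurine carrier, went the other way, from 65.8, 66.7 and 66.5 to 53.02, 54.7 and 49.1 CPM (-0.34 ± 0.05). NRF2 targets, which guard against oxidants, had 4 of 20 risen, beside 5.65% of all genes. NQO1, a quinone reductase, went from 571, 549.9 and 546 to 681, 703 and 752 CPM (0.36 ± 0.04, adjusted p = 5.86e-05), and TXNRD1, thioredoxin reductase, rose by 0.20 ± 0.03.

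Genes of mitosis rose in part. Of 59 G2/M genes, 29 rose, 2 fell and 28 did not pass, beside 5.65% risen and 5.07% fallen of all genes. The list median was 0.11. CDK1, the kinase that drives entry into mitosis, was at 103, 104 and 105 CPM in DMSO and 154, 149 and 152 CPM in the combination, a 1.46-fold rise (log2 change 0.54 ± 0.03, adjusted p = 4.69e-07). HMMR, a spindle protein, went from 72.9, 75.1 and 74.7 to 115, 115 and 109 CPM (0.61 ± 0.05), and UBE2C, which passes ubiquitin to mitotic substrates, from 145, 139 and 139 to 202, 215 and 229 CPM (0.61 ± 0.05). The 6 libraries were tightly grouped, and none of the 3 genes overlapped between treatments. TOP2A, the topoisomerase that untangles chromosomes, rose by 0.42 ± 0.04, and KIF4A, a chromokinesin, by 0.34 ± 0.03. Against this, MKI67, which encodes the proliferation marker Ki-67, went from 525, 550.4 and 551 to 441, 424 and 397 CPM (-0.37 ± 0.05, adjusted p = 0.000242). CCNF, cyclin F, fell by 0.19 ± 0.05 on the log2 scale (adjusted p = 0.0148) but not without DMSO replicate 1 (0.055), so that 1 member then fell. MKI67 and CCNF are named because they are the 2 exceptions, chosen after their values were seen.

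With XL413 alone, 22 members of the G2/M list rose and 2 fell, beside 1.26% and 1.54% of all genes (median 0.08). With OF1 alone 1 rose and 3 fell, beside 0.58% and 0.567% (median -0.01). The difference between the single inhibitors was not tested. Against OF1 the combination had 31 members higher and 1 lower, beside 2.79% and 2.71% of all genes, and against XL413 0 higher and 1 lower, beside 1.06% and 2.35%. For CDK1 the difference from XL413 was 0.10 (adjusted p = 0.117) and that from OF1 0.47 (adjusted p = 7.84e-06). MKI67 changed by -0.42 with XL413 and by -0.04 with OF1.

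The promoters of mitotic genes were searched for TTTGAA, the core of the CHR, over the same window and on both strands. It was in 33 of the 51 members with an entry (64.7%), in 17 of 24 risen members (70.8%) and in 16 of 27 others (59.3%), against 4212 of 27305 promoters (15.4%). The 250 bases before the start of the 3 members of smallest p that hold it are shown 5′ to 3′ with the motif in capitals: CDK1 (chr10:60778081-60778330), HMMR (chr5:163460382-163460631) and KIF4A (chrX:70289854-70290103), all on the plus strand. The motif begins 161 bases before the start in CDK1 and 34 before it in KIF4A, and HMMR has 2 adjoining copies, 28 and 22 bases before its start.
CDK1: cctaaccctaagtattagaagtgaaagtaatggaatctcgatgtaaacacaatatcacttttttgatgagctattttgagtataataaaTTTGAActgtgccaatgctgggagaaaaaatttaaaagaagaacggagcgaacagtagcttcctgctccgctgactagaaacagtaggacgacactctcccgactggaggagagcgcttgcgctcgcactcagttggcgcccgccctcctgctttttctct
HMMR: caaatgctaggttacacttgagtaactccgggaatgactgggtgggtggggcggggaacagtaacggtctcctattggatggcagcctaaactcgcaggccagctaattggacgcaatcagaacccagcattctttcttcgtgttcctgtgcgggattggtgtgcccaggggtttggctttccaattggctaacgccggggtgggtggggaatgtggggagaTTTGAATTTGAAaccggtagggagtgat
KIF4A: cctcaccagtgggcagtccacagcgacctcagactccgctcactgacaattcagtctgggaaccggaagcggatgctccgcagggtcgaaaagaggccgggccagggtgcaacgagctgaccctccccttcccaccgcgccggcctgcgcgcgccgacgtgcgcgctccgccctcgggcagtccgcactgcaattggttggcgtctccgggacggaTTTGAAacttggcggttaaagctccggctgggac
A match describes these letters only, and binding was not measured.

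**Figure D3:**
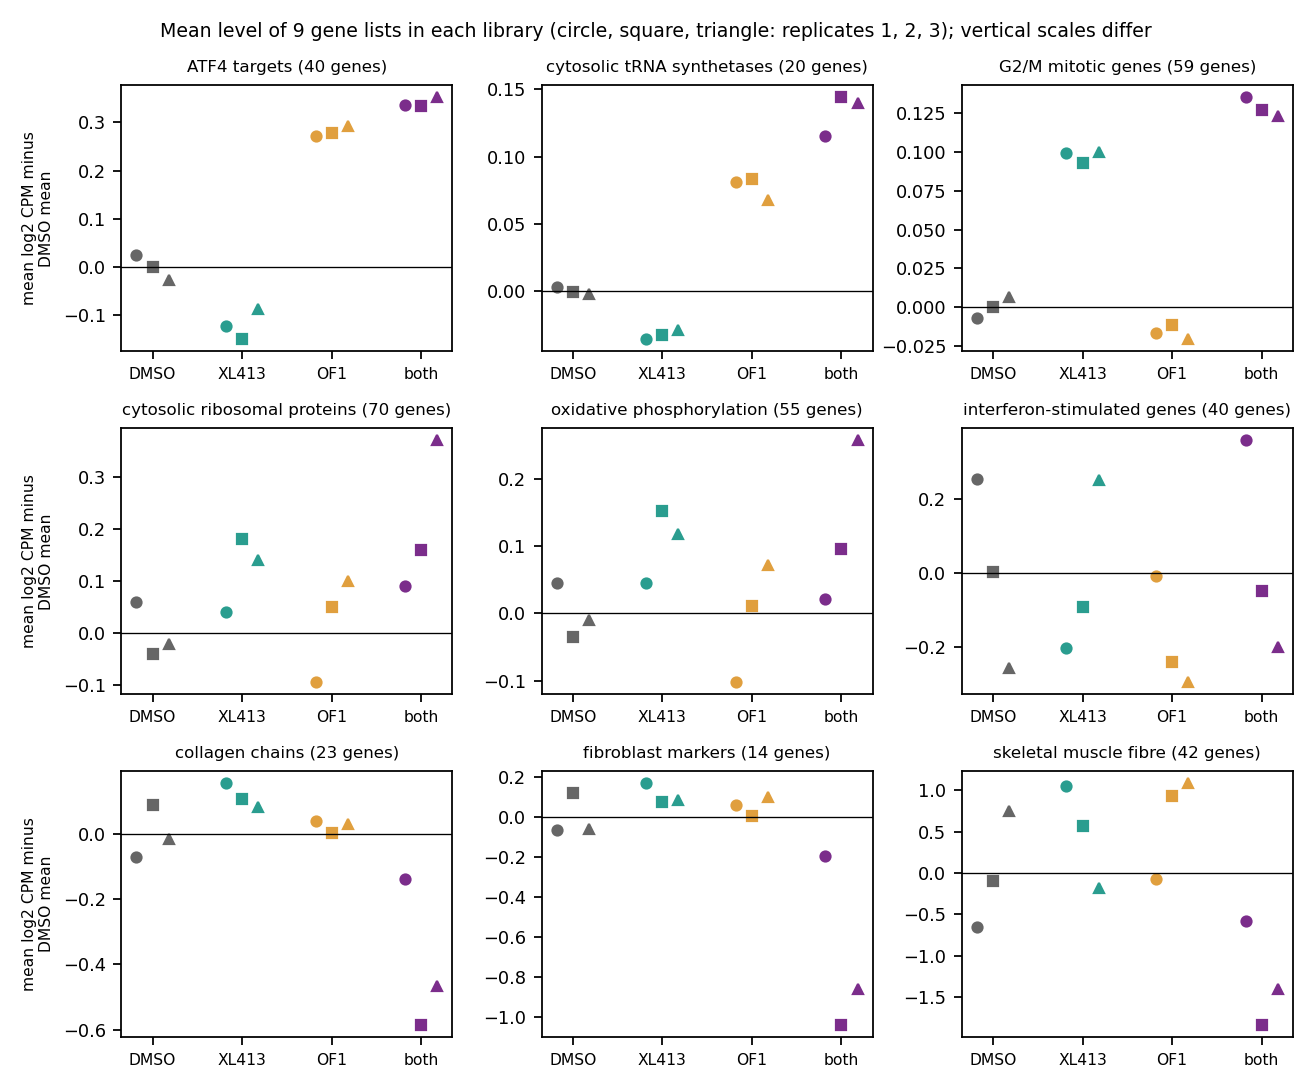
Mean log2 CPM of 9 gene lists in each library minus the DMSO mean (vertical axis, scales differ), with circles, squares and triangles for replicates 1, 2 and 3. The 3 combination libraries lie close together for ATF4 targets, tRNA synthetases and G2/M genes, and apart for ribosomal proteins, oxidative phosphorylation, interferon-stimulated genes, collagens, fibroblast markers and muscle.

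Genes around CDC7 and DNA replication moved less. The list counts here stand beside 5.65% of all genes risen and 5.07% fallen. CDC7 itself was at 24.4, 22.7 and 22.6 CPM in DMSO and 23.6, 23.6 and 23.4 CPM in the combination (log2 change 0.02 ± 0.05, adjusted p = 0.881), and MCM2, a helicase subunit that CDC7 phosphorylates, at 346, 346 and 342 and 342, 357 and 358 CPM (adjusted p = 0.548). DBF4, the activator of CDC7, went from 48.3, 48.7 and 47.8 to 55.97, 53.4 and 52.9 CPM (0.16 ± 0.04, adjusted p = 0.0225), a call lost when any DMSO replicate was left out (adjusted p of 0.0627, 0.0698 and 0.0903) or combination replicate 1 (0.0573). Of 29 genes for origin licensing and firing, 6 rose and 0 fell, and the count was 2 when any DMSO replicate was left out. MCM3, another helicase subunit, went from 181, 179 and 176 to 210.3, 221 and 230.0 CPM (0.31 ± 0.03, adjusted p = 8.55e-05), at 0.29 with XL413 and -0.06 with OF1. Of 31 genes of the replication checkpoint and repair, 7 rose, and 4 rose without DMSO replicate 2. The checkpoint kinase CHEK2 went from 14.96, 12.9 and 12.9 to 18.3, 17.7 and 18.4 CPM (0.41 ± 0.07), and CHEK1, the kinase that restrains CDK1 when replication stalls, rose by 0.20 ± 0.03. Of 29 S phase and replisome genes, 6 rose and 2 fell, and only 1 rose without DMSO replicate 3, 2 without DMSO replicate 2 and 3 without combination replicate 2. At most 1 fell when any DMSO replicate or combination replicate 1 or 2 was left out.

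Of 27 histone genes listed, 19 had enough counts to be tested, and 4 of these rose, beside 5.65% of all genes. Transcripts of replication-dependent histones mostly lack a poly(A) tail, and these libraries were selected for poly(A). Besides HIST1H2AC, HIST1H2BK went from 16.2, 17.2 and 16.3 to 27.2, 27.5 and 28.7 CPM (0.75 ± 0.07, adjusted p = 1.79e-05), and HIST3H2A from 8.69, 11.3 and 9.86 to 14.3, 14.3 and 16.3 CPM (0.59 ± 0.08). HIST1H2BD, an H2B gene like HIST1H2BK, was at 2.52, 2.35 and 1.85 and 4.81, 3.98 and 4.36 CPM. Histone genes are close copies of each other, so the split of shared reads between them is uncertain. The 4 calls were kept whichever library was left out, and all 4 genes were higher than with OF1 alone, while none differed from XL413 alone. The chaperone NASP, which binds histones H3 and H4, rose by 0.19 ± 0.03.

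The targets of OF1 did not pass. BRPF1 was at 48.4, 49.7 and 48.1 CPM in DMSO and 45.7, 43.1 and 46.00 CPM in the combination (log2 change -0.12 ± 0.04, adjusted p = 0.0837). BRD1 was at 28.3, 28.2 and 28.9 and 26.3, 24.4 and 26.1 CPM (-0.15 ± 0.06, adjusted p = 0.0928), and BRPF3 changed by -0.06 ± 0.04 (adjusted p = 0.415). BRPF1 and BRD1 did not pass the test. Both were lower in every combination library than in every DMSO library, as were 13.8% of all genes tested. Of 12 genes of the BRPF, HBO1, MOZ and MORF complexes 0 passed with edgeR and 0 with DESeq2, at a median of -0.07. With edgeR 10.7% of all genes passed in either direction. Without overlap, 5 of the 12 lay lower and 1 higher, beside 13.8% of all genes each way. Of 36 HOX genes, which MOZ complexes are known to maintain in development, 1 fell, beside 5.07% of all genes. It was HOXC13 (-0.29 ± 0.07), which lost its call without DMSO replicate 2 (0.0715), DMSO replicate 3 (0.105) or combination replicate 2 (0.0879). Without combination replicate 3, 2 fell.

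**Figure D4:**
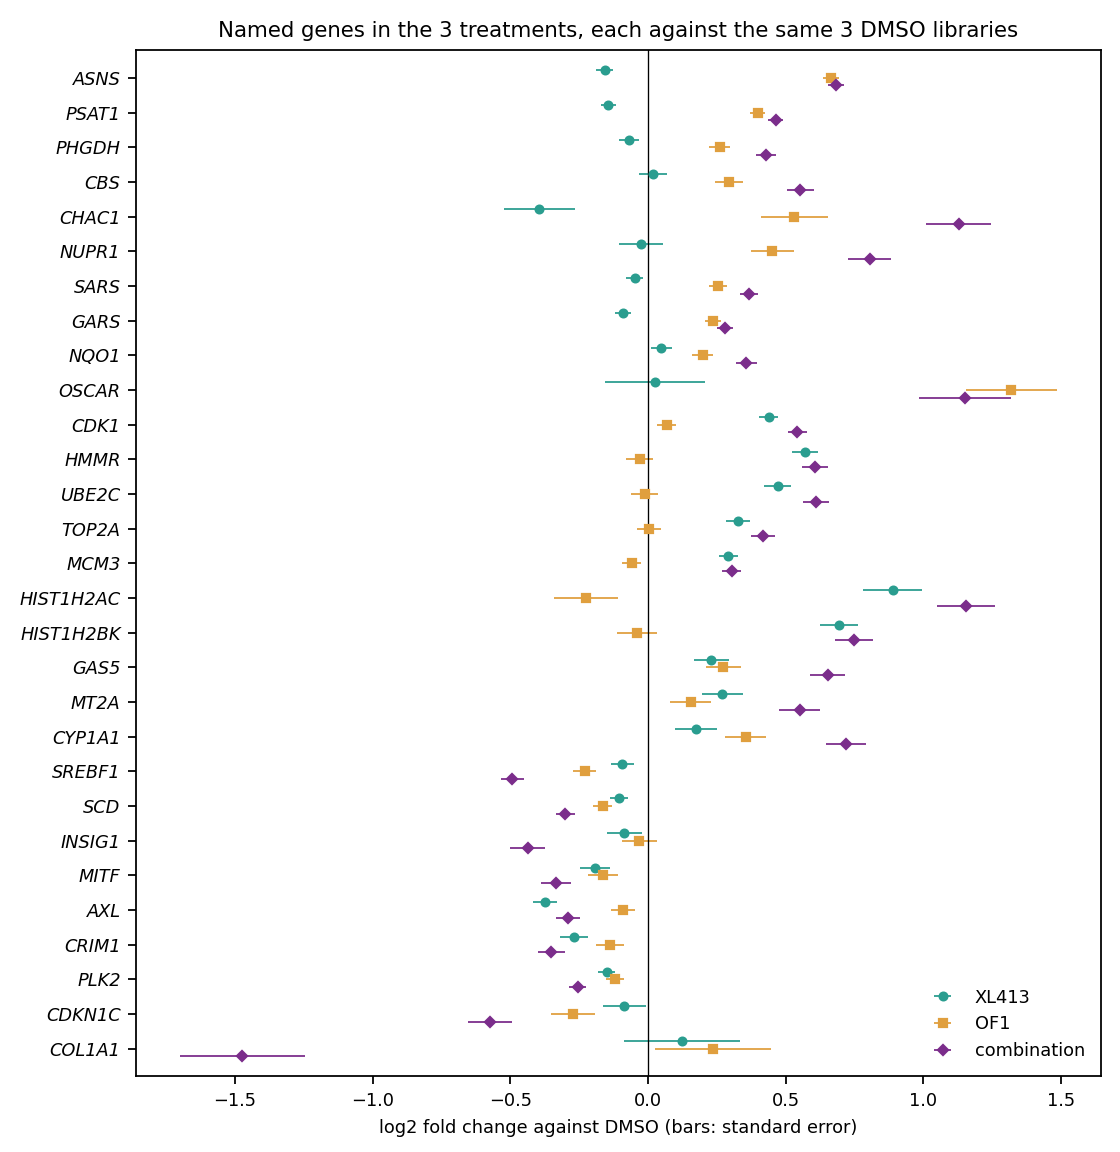
Log2 fold change against DMSO with SE bars (horizontal axis) for named genes under XL413, OF1 and the combination, each set against the same 3 DMSO libraries. Genes from ASNS to OSCAR are higher with OF1 and with the combination, genes from CDK1 to HIST1H2BK with XL413 and with the combination, and the combination has the largest change for GAS5, MT2A, CYP1A1, SREBF1, INSIG1 and CDKN1C.

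The combination differed from DMSO and from each inhibitor alone in 125 genes, in 122 of them in the same direction. GAS5, CYP1A1, PMAIP1 and CDKN1C were among these, as was SREBF1, described below. For single genes, the tests against each inhibitor were not repeated with a library left out. GAS5, a spliced non-coding RNA whose introns hold small nucleolar RNAs, was at 205, 185 and 189 CPM in DMSO and 281, 298 and 331 CPM in the combination (0.65 ± 0.06, adjusted p = 2.73e-05), higher than with XL413 (adjusted p = 0.00178) and than with OF1 (adjusted p = 0.00484). Its single changes were 0.23 with XL413 and 0.27 with OF1. CYP1A1 went from 6.09, 6.13 and 5.86 to 9.50, 9.84 and 10.4 CPM (0.72 ± 0.07), above XL413 (adjusted p = 0.000661) and OF1 (0.0118). MT2A, a metallothionein that binds zinc, went from 543, 474 and 492 to 681, 709 and 820.3 CPM (0.55 ± 0.07), above OF1 (adjusted p = 0.00967) but not XL413 (0.0526). PMAIP1, the BCL2 family member NOXA, went from 38.9, 40.02 and 40.5 to 50.3, 49.8 and 50.1 CPM (0.33 ± 0.04), above XL413 (0.00052) and OF1 (0.0423). CDKN1C, the CDK inhibitor p57, went down from 15.3, 15.1 and 15.96 to 10.9, 9.98 and 10.3 CPM (-0.57 ± 0.08), below XL413 (0.00433) and OF1 (0.0465).

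GAS5 was joined by other transcripts that host small nucleolar RNAs, a list written after the values had been seen. Of 22 tested, 7 rose and 1 fell, beside 5.65% and 5.07% of all genes. None fell when any DMSO replicate or combination replicate 1 was left out. ZFAS1 went from 183, 160.4 and 166 to 215, 225 and 263 CPM (0.47 ± 0.08), SNHG5 from 224, 203 and 198 to 255, 271 and 316 CPM (0.43 ± 0.08) and SNHG6 rose by 0.42 ± 0.07. Combination replicate 3 was the highest library for each of these. Translation factors, also listed afterwards, split into 12 risen and 6 fallen of 38, with 6 and 2 when DMSO replicate 2 or 3 was left out and 7 risen without combination replicate 3. EEF1A1, the elongation factor that delivers tRNAs, rose by 0.24 ± 0.02, and EIF5A, which eases stalled ribosomes, fell by 0.24 ± 0.04 on the log2 scale.

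Lipid synthesis genes fell in part, and the counts here stand beside 5.07% of all genes fallen and 5.65% risen. SREBF1, the transcription factor of fatty acid synthesis, was at 92.2, 97.4 and 95.7 CPM in DMSO and 63.5, 69.6 and 69.5 CPM in the combination, a 1.41-fold fall (log2 change -0.49 ± 0.04, adjusted p = 1.17e-05). It was lower than with XL413 (adjusted p = 6.55e-05) and with OF1 (adjusted p = 0.00435). SCD, the desaturase that makes oleate, went from 228, 229.8 and 232 to 195, 185 and 181 CPM (-0.30 ± 0.03), and FASN, fatty acid synthase, fell by 0.26 ± 0.04 on the log2 scale. Those were the 3 fallen of 19 fatty acid synthesis genes, while ACSS2, which makes acetyl-CoA from acetate, rose by 0.37 ± 0.07. Of 24 cholesterol synthesis genes 7 fell and 0 rose, with 3 fallen without DMSO replicate 1 and 4 without DMSO replicate 3. INSIG1, which holds SREBP in the endoplasmic reticulum, went from 14.6, 14.9 and 15.2 to 11.1, 10.2 and 11.7 CPM (-0.44 ± 0.06), and DHCR7, the last enzyme to cholesterol, fell by 0.33 ± 0.05 on the log2 scale.

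Of 14 melanocyte genes 1 was called, beside 10.7% of all genes in either direction (5.65% risen and 5.07% fallen). It was MITF, the master factor of melanocytes, at 42.8, 43.1 and 44.4 CPM in DMSO and 34.9, 35.6 and 32.8 CPM in the combination (-0.33 ± 0.05, adjusted p = 0.00173). MITF did not differ at the threshold from XL413 (-0.14) or OF1 (-0.17) alone. AXL, a receptor kinase of the invasive state that is usually high where MITF is low, also went down, from 466, 471 and 483 to 387, 405 and 369 CPM (-0.29 ± 0.04, adjusted p = 0.000894), at -0.37 with XL413 and -0.09 with OF1. Of 22 genes of the AXL-high invasive state 5 fell and 0 rose (median -0.08), with 3 fallen without DMSO replicate 1 and 1 without DMSO replicate 2, DMSO replicate 3 or combination replicate 2. Of 21 YAP and TEAD targets 7 fell, with 3 fallen without DMSO replicate 2 or 3, 4 without combination replicate 2 and 11 without combination replicate 1. CRIM1, a membrane protein that binds growth factors, went from 346, 359.7 and 349.7 to 286, 282 and 259.8 CPM (-0.35 ± 0.05). Of 21 genes of MAPK output 2 rose and 3 fell, 1 of them without DMSO replicate 2. DUSP6, a phosphatase of ERK, rose by 0.23 ± 0.03. MYC fell by 0.20 ± 0.06 on the log2 scale (adjusted p = 0.031), a call lost whichever of the 6 libraries was left out, at adjusted p of 0.0611, 0.101 and 0.0846 without DMSO replicates 1 to 3 and 0.0562, 0.0583 and 0.0511 without combination replicates 1 to 3.

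Inflammatory and antigen presentation genes rose in part, with 5.65% of all genes risen and 5.07% fallen for comparison. Of 32 NF-kB targets and secreted factors 9 rose and 1 fell, with 5 risen without DMSO replicate 2 and 3 fallen without combination replicate 1. CXCL1, a neutrophil attractant, went from 67.5, 66.7 and 65.6 to 78.5, 81.5 and 85.9 CPM (0.30 ± 0.04). CXCL8, another such chemokine, rose by 0.37 ± 0.05, at 0.40 with XL413 and 0.32 with OF1. IL1A, an alarm cytokine, went from 4.98, 5.40 and 6.19 to 8.76, 8.02 and 7.88 CPM (0.57 ± 0.10), whereas IL18 went down from 5.70, 4.66 and 5.23 to 3.42, 3.59 and 3.37 CPM (-0.59 ± 0.12). CCL2, a monocyte attractant chosen after its values were seen, rose by 0.30 ± 0.08, less than with XL413 alone (0.68; adjusted p of the difference = 0.0117). It lost its call without DMSO replicate 2 (0.0778), DMSO replicate 3 (0.122) or combination replicate 3 (0.104). Of 17 genes of MHC class I presentation 7 rose and 1 fell, and 4 rose and 0 fell without DMSO replicate 2 or 3. Without combination replicate 2 or 3 the fallen numbered 0 and 2. B2M, the light chain of class I molecules, went from 506, 481 and 464 to 586, 556 and 615 CPM (0.28 ± 0.05). Of 40 interferon-stimulated genes 2 rose, near the share over all genes, and 0 did without DMSO replicate 2 or 3 or combination replicate 2 or 3.

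Of 29 p53 targets 3 rose and 1 fell, while over all genes 5.65% rose and 5.07% fell. The count was 1 risen without DMSO replicate 3 and 2 fallen without combination replicate 1 or 3. The median log2 change of the 3 risen members was 0.33. The 1 fallen member was PLK2, a kinase that p53 induces, which went from 171, 172 and 171 to 141, 143 and 147 CPM (-0.26 ± 0.03). Of 27 G1/S genes 3 rose and 4 fell, with 2 fallen without DMSO replicate 3 or combination replicate 2. RBL1, the pocket protein p107, went from 46.8, 46.8 and 48.98 to 62.5, 63.1 and 58.4 CPM (0.37 ± 0.04). Of 33 genes of MYC and ribosome biogenesis 7 fell and 0 rose, with 3 fallen without DMSO replicate 2, 2 without DMSO replicate 3 and 4 without combination replicate 2. SRM, the enzyme that makes spermidine, went from 175, 172 and 176 to 134, 143 and 146 CPM (-0.31 ± 0.04, adjusted p = 0.000187). Of 30 hypoxia and glycolysis genes 8 fell and 1 rose, a call lost without DMSO replicate 1 or 2. The fallen ones included CA9, a carbonic anhydrase (-1.27 ± 0.26), and HK2, hexokinase 2 (-0.16 ± 0.03).

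**Figure D5:**
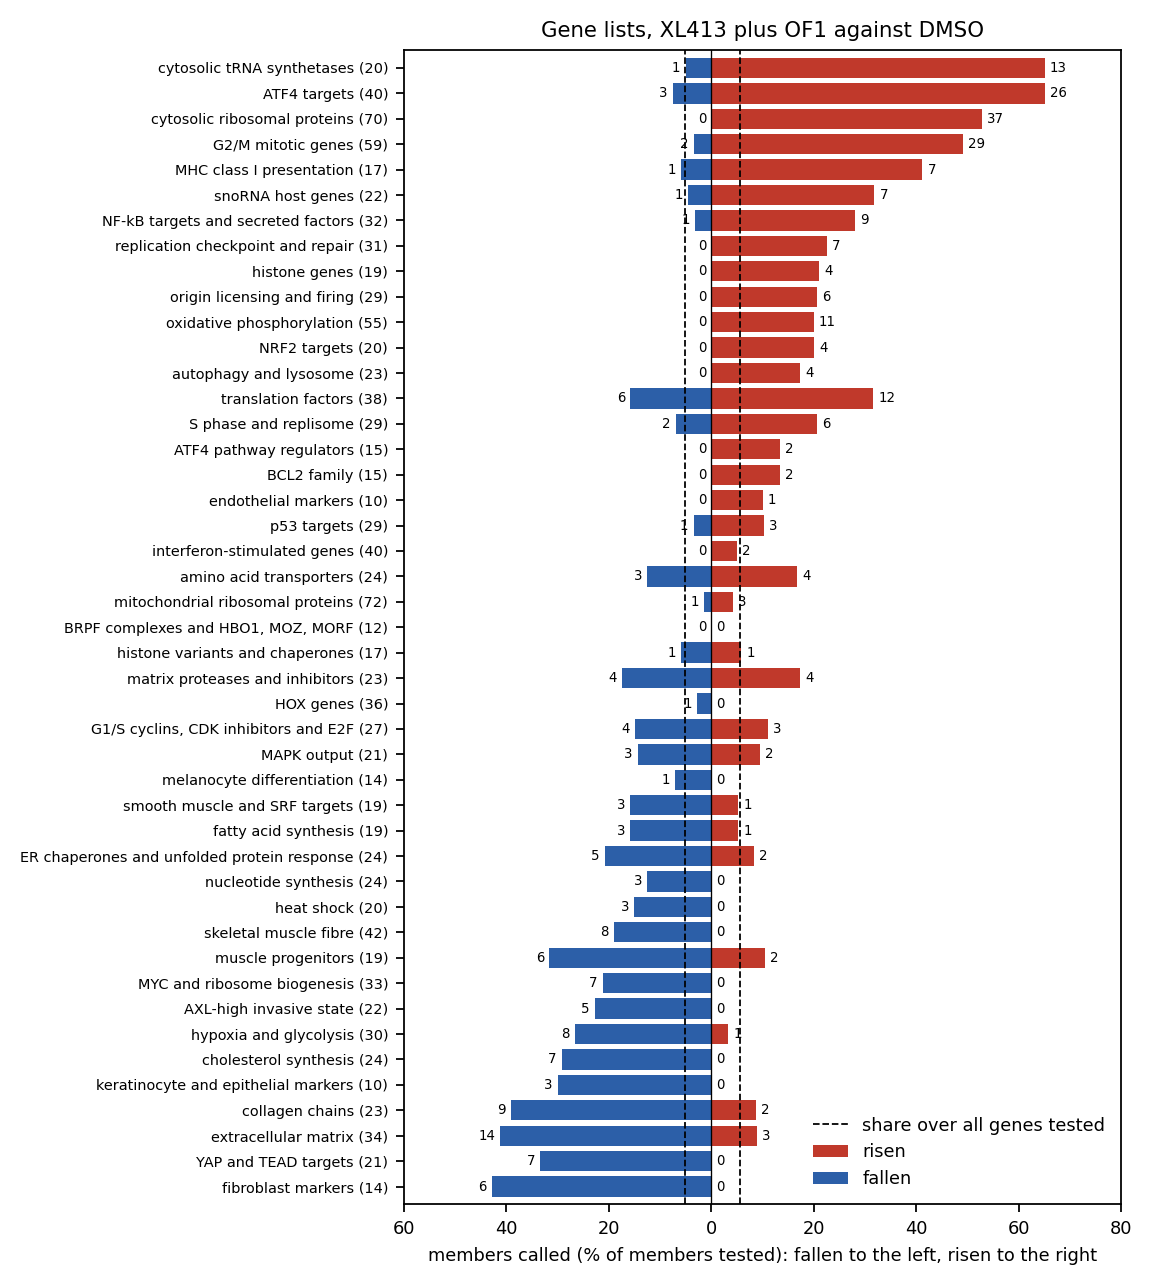
Share of tested members (horizontal axis, %) that rose (red, to the right) or fell (blue, to the left) for the lists with at least 10 tested members, with the number of members tested in brackets, the number called beside each bar and dashed lines at the shares over all genes, 5.65% and 5.07%. ATF4 targets and tRNA synthetases have the highest shares risen, and fibroblast markers and extracellular matrix the highest shares fallen.

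Cytosolic ribosomal protein genes rose together but unevenly between libraries. Of 70 tested, 37 rose and 0 fell (median 0.21), beside 5.65% and 5.07% of all genes. RPL12, of the large subunit, went from 1258, 1183 and 1183 to 1406, 1476 and 1666 CPM (0.33 ± 0.06, adjusted p = 0.00315), with the third combination library the highest. RPS3A, of the small subunit, went from 1124, 1063 and 1057 to 1273, 1249.9 and 1372 CPM (0.26 ± 0.05). The count was 6 without DMSO replicate 2, 7 without DMSO replicate 3, 13 without combination replicate 3 and 61 without combination replicate 1, and it was 3 with replicate 1 as the only combination library (median 0.08) and 0 with the muscle score as a covariate (median 0.18). These genes have many processed pseudogenes, so the split of shared reads is uncertain here too. Against XL413 alone 0 of the 70 differed, beside 3.41% of all genes, and against OF1 alone 7 were higher, beside 2.79%. Of 55 oxidative phosphorylation genes 11 rose (median 0.12), with 0 without DMSO replicate 2, 1 without DMSO replicate 3, 4 without combination replicate 3, 28 without combination replicate 1 and 0 with the muscle score as a covariate (median 0.09). The part of combination replicate 3 in these counts beyond those values was not tested.

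Among genes of average log2 CPM of at least 1, the largest falls were mostly in genes of muscle and connective tissue. Of the 15 named, MYH8 (-2.18 ± 0.59), MYH7 (-2.00 ± 0.51), TTN (-1.59 ± 0.41), FLNC (-1.41 ± 0.32) and RYR1 (-1.37 ± 0.35) encode muscle proteins, and CDH15 (-1.31 ± 0.39) is the cadherin of muscle precursors. COL1A1 (-1.47 ± 0.23), COL1A2 (-1.39 ± 0.28), COL3A1 (-1.35 ± 0.25) and FBN2 (-1.07 ± 0.24) form matrix fibres, and ADAMTS2 (-1.13 ± 0.26) trims procollagen. The others were SYNPO2 (-1.43 ± 0.43), LSP1 (-1.32 ± 0.38), IGF2 (-1.27 ± 0.30), a growth factor, and ITGBL1 (-1.22 ± 0.31). All of these were lower in every combination library than in every DMSO library, which the rule for naming them required. With replicate 1 as the only combination library, COL1A1 (adjusted p = 0.00277), COL1A2 (0.0243) and COL3A1 (0.0107) kept a call and the other 12 did not. The log2 changes with that library alone were -0.81, -0.59 and -0.58 for these collagens, and ran from -1.29 (MYH8) to -0.28 (CDH15) for the other 12. Without combination replicate 1 the log2 changes were -2.38 for SYNPO2, -2.33 for CDH15, -2.31 for LSP1, -2.22 for FLNC, -2.08 for IGF2, -2.06 for ITGBL1 and -1.74 for ADAMTS2, each over 1.5 times its value with all libraries. COL1A1, the main chain of type I collagen, was at 80.6, 102 and 94.4 CPM in DMSO and 52.7, 19.4 and 28.4 CPM in the combination (adjusted p = 0.00107). IGF2 was at 58.04, 65.7 and 71.2 and 50.6, 14.1 and 16.9 CPM (adjusted p = 0.0164), and MYH7, the slow myosin heavy chain, at 4.41, 7.13 and 12.8 and 3.85, 0.757 and 1.56 CPM (adjusted p = 0.0225). In these genes combination replicate 1 lay just or well below the lowest DMSO library, and replicates 2 and 3 lay far below it. Muscle genes also varied within DMSO, where MYH7 was highest in replicate 3 and lowest in replicate 1. MYH7 lost its call without DMSO replicate 2 (adjusted p = 0.0531) or 3 (0.114) or combination replicate 2 (0.0909) or 3 (0.0569). IGF2 lost it without DMSO replicate 2 (0.0553), DMSO replicate 3 (0.0618) or combination replicate 2 (0.0557). Calls were also lost by MYH8 without DMSO replicate 2 (0.0581), DMSO replicate 3 (0.149), combination replicate 2 (0.116) or combination replicate 3 (0.0678), where the value in brackets is the adjusted p without that library. TTN lost its call without DMSO replicate 2 (0.0609), DMSO replicate 3 (0.12), combination replicate 2 (0.0988) or combination replicate 3 (0.0518). FLNC lost it without DMSO replicate 3 (0.0591) or combination replicate 2 (0.0547) and RYR1 without DMSO replicate 3 (0.118) or combination replicate 2 (0.0899). The same held for CDH15 without DMSO replicate 1 (0.0745), DMSO replicate 2 (0.0813), DMSO replicate 3 (0.146), combination replicate 2 (0.159) or combination replicate 3 (0.111). SYNPO2 kept its call only without 1 library and lost it without DMSO replicate 1 (0.0569), DMSO replicate 2 (0.0778), DMSO replicate 3 (0.21), combination replicate 2 (0.174) or combination replicate 3 (0.127), and LSP1 lost it without DMSO replicate 1 (0.107), DMSO replicate 2 (0.0765), DMSO replicate 3 (0.1), combination replicate 2 (0.15) or combination replicate 3 (0.107). ITGBL1 lost it without DMSO replicate 2 (0.0809), DMSO replicate 3 (0.0758), combination replicate 2 (0.0759) or combination replicate 3 (0.0645), ADAMTS2 without DMSO replicate 2 (0.0576) or combination replicate 2 (0.0588) and FBN2 without DMSO replicate 2 (0.0531). COL1A1, COL1A2 and COL3A1 kept their calls whichever library was left out.

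By list, 8 of 42 muscle fibre genes fell and 0 rose (median -1.41), beside 5.07% and 5.65% of all genes. The same shares stand beside the other lists here. The muscle count ran from 0, without DMSO replicate 3 or combination replicate 2, to 21, without combination replicate 1. It was 18 without DMSO replicate 1 and 2 without DMSO replicate 2 or combination replicate 3. The summed level of the 42 genes, most of it from the widely expressed TPM3, was 1389 to 1588 CPM in DMSO and 1265 to 1343 CPM in the combination. Of 14 fibroblast markers 6 fell (median -0.66), beside 5.07% of all genes, and 3 did without DMSO replicate 2, combination replicate 2 or combination replicate 3. Their summed level was 267 to 326 CPM in DMSO, 219 CPM in combination replicate 1 and 111 and 132 CPM in replicates 2 and 3. Of 23 collagen chains 9 fell and 2 rose, the latter COL27A1 (0.21 ± 0.04) and COL13A1 (0.27 ± 0.05), and with replicate 1 as the only combination library 3 fell. Of 34 other extracellular matrix genes 14 fell and 3 rose, with 6 fallen without DMSO replicate 1, DMSO replicate 3 or combination replicate 3, 3 without DMSO replicate 2 and 4 without combination replicate 2, while 1 rose when any library other than combination replicate 3 was left out. With the muscle fibre score of each library as a covariate, 1 fibroblast, 2 collagen and 0 other matrix genes fell, and COL1A1 kept its call (adjusted p = 0.0238). The median log2 changes were then -0.43 for the fibroblast markers, -0.17 for the collagens, against -0.16 without the covariate, and -0.20 for the other matrix genes, against -0.27. The muscle count under that covariate is not read, since the score is the mean of the muscle genes themselves. TGFB1, a growth factor that induces matrix, went from 69.6, 77.3 and 80.8 to 61.00, 58.6 and 62.98 CPM (-0.32 ± 0.06), and MMP3, a matrix protease that went the same way with OF1 (-0.89), from 8.48, 8.98 and 6.90 to 5.34, 4.79 and 5.42 CPM (-0.65 ± 0.10). With that covariate the combination changed 328 genes, 315 of them among the 1645, and 20 ATF4 targets and 17 G2/M genes still rose. ASNS (adjusted p = 1.95e-06), CDK1 (7.68e-05), HIST1H2AC (0.00139) and SREBF1 (0.000898) kept their calls.

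Across all genes the combination differed from XL413 alone in 524 genes (3.41%, 163 higher and 361 lower) and from OF1 alone in 845 (5.5%, 429 higher and 416 lower). Without combination replicate 2 these counts were 168 and 212, and without replicate 1 they were 828 and 2227, while without replicate 3 they were 619 and 370. The test of additivity, which sets the combination's log2 change against the 2 single changes added together, passed for 0 genes with edgeR, where 1566 had an unadjusted p under 0.05, for 109 with DESeq2, and for 362 with edgeR without combination replicate 1. The smallest p values belonged to NREP, a neuronal regeneration protein, at a departure of -0.43 (adjusted p = 0.0797), COL1A1 at -1.83 (0.0869) and ACTA2, smooth muscle actin, at -0.85 (0.0869). CHAC1 had a departure of 0.99 (adjusted p = 0.0869) and GAS5 one of 0.15 (0.608). In simulated tables of 15353 genes, the fit of the combination against DMSO recovered 139 of 200 genes changed 1.3-fold. It recovered 163 changed 1.5-fold and 193 changed 2-fold. These tables gave a gene the same spread in every group, unlike the libraries, and the departure from additivity was not simulated.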

How the data were processed

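RNA of 12 libraries of A375 cells (3 per treatment) was selected for poly(A) and sequenced from strand-specific libraries, per the labels' protocols. The deposited table holds the authors' expected counts per gene symbol; the submitters' processing notes list Bowtie2 2.1.0, RSEM 1.2.15 and hg38. Which annotation was counted, and whether strand was used, is not given in the sources used here. The table had 26475 entries, 5255 of them at 0 in all libraries, and 10.6% of values were not whole, so expected counts were rounded. The totals were 30499559 to 36062138 counts per library.

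Genes passing filterByExpr were scaled by TMM and fitted with edgeR 4.0.16 (R 4.3.3) by quasi-likelihood, with 1 mean per treatment over all 12 libraries (8 residual degrees of freedom), and p was adjusted by Benjamini-Hochberg over all genes tested. Standard errors were taken as |log2 change| over the root of the F statistic. The combination was tested against DMSO, against each single inhibitor, and for a departure from additivity, which would make its log2 change equal to both single changes added. Alternatives were DESeq2 1.42.0, limma 3.58.1 (voom), other scalings and filters, and a replicate block. Each DMSO or combination library was also left out in turn, and each library's muscle fibre score was used as a covariate. The fit was tested on simulated data.

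The named genes were the 15 risen and 15 fallen genes of largest change among those averaging 1 log2 CPM or more without overlapping libraries, up to 5 called members of smallest p from each of 44 lists, and 10 genes fixed by name (CDC7, DBF4, BRPF1, BRD1, BRPF3, MCM2, ATF4, MYC, SOX10 and MITF). The 3 genes of smallest p for the departure were also named. Any other gene, such as ATF5, ALDH18A1, CCNG2, MKI67, CCNF, VARS, DDIT3 or CCL2, was chosen after its values were seen. So were 3 added lists (small nucleolar RNA hosts, translation factors and mitochondrial ribosomal proteins). Of 72 mitochondrial ribosomal protein genes 3 rose and 1 fell, beside 5.65% and 5.07% of all genes. With 1 library left out, 0 to 9 rose and 0 to 5 fell. The members and lists were chosen with earlier results of these data known. Symbols were matched to RefSeq for 23749 of 26473 names, and promoter sequences are RefSeq's for GRCh38.p14. A few named genes are not reported here.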

Additional observations from a re-analysis of the deposited data

How the results depend on the processing

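The 1645 genes called between the combination and DMSO became 878 with 6 libraries alone, 328 with the muscle fibre score as a covariate, 34 in a test against a 1.2-fold change and 857 with combination replicate 1 as its only library, and ran from 728 to 2113 when 1 library was left out. DESeq2, limma-voom, other scalings and other filters gave 1640 to 1723, and offsets for GC content and length, chosen after seeing the data, gave 2245. Against OF1 the 845 genes became 9 with the covariate and 53 with replicate 1 alone, and 212 to 2227 with a library left out. Against XL413 the 524 became 33, 155, and 168 to 828. The departure, at 0 genes, was 109 with DESeq2, 2 with the replicate block and 0 to 362 with a combination library left out. Leaving out a library moved the 1645 down to 728 without DMSO replicate 2 and up to 2113 without combination replicate 1. The cause of these moves was not tested.

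The replicate block gave 1573 genes against DMSO, 850 against OF1 and 476 against XL413. Same-numbered DMSO and combination libraries did not deviate together (correlations of -0.04, -0.07 and -0.06), so the numbers are not taken to pair the libraries. Of the settings tried on named genes, 2901 kept direction and call, 657 lost the call, 9 gained it and 7 changed sign. The sign changes were CDC7 at -0.0208 with the covariate, -0.0246 with the GC and length offsets and -0.00629 to 0.0513 with a library left out, MCM2 at -0.0110 and SLC3A2 at -0.00332 with replicate 1 alone, and SOX10 at 0.0319 with the covariate, none of which was called.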
